A study of Mus musculus with 24 samples.

Results

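Protein interaction profile sequencing (PIP-seq) maps the stretches of RNA that bound proteins shield from an RNase. The sites described here are the protein-protected sites (PPSs) seen with the single-stranded RNase (ssRNase, RNaseONE) in MEL cells before DMSO treatment (day 0) and after 4 days of it (day 4). MEL is a mouse leukemia line of early red cell precursors, and adding DMSO to the medium starts the last steps of red cell formation. A PPS was kept when at least 1 of the calls merged into it was an ssRNase call of either replicate. PPSs of 20 to 40 nt were left out, because a ribosome protects a fragment of about that size. The rule gave 84983 PPSs on day 0 and 73127 on day 4, together 158110 of the 291202 PPSs in the lists of these days and of the 460777 PPSs in the series.

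The groups were undifferentiated MEL cells and MEL cells grown for 4 days in medium with DMSO, all crosslinked with formaldehyde. Each day had 2 replicates, and for each replicate the authors set a library digested with ssRNase while proteins were still bound against a library digested with ssRNase after the proteins had been removed. The 4 sets of calls therefore rest on 8 libraries, and the study calls the replicates biological ones. No further treatment or genetic change distinguishes the groups, and all cells come from 1 cell line in culture, so that nothing here reaches beyond that line. Values are given for the PPSs of each replicate, as the mean ± SD of 2 replicates, and as the range of the day 4 minus day 0 difference over the 4 pairs of replicates. An exact permutation test of 2 replicates against 2 cannot give a two-sided p below 0.333, so class shares, coverage and overlaps carry no p.

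An mRNA is never naked in the cell. In the nucleus, splicing factors such as SR proteins and hnRNPs bind exons and introns of the precursor. In the cytoplasm, translation factors and ribosomes occupy the 5′ UTR and the coding sequence (CDS), and proteins of the Pumilio, AU-rich element and KH domain families bind the 3′ UTR and set the stability and translation of the message. Red cell precursors lean on this layer of control, because they make large amounts of globin and heme while the nucleus condenses and transcription is shut down. ssRNase cuts unpaired RNA, so an ssRNase PPS marks unpaired bases that were covered by protein.

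Several properties of the lists come before the results. A PPS can only be called where RNA is present, so more protein on an RNA and more of the RNA cannot be told apart here, and these lists do not give how deeply each library was sequenced. The replicates held 56044 and 50995 PPSs on day 0 and 47625 and 48112 on day 4. PPSs with calls of both replicates made up 25.95% of the day 0 list and 30.9% of the day 4 list. The replicates of a day share the coordinates of the merged PPS, so their spread understates the true one. The balance of the strands differed between the replicates. The plus strand held 52.0% and 66.9% of the PPSs in the day 0 replicates and 51.0% and 43.1% in the day 4 replicates. Day 0 replicate 2 stands apart in this respect. The main class shares, mean coverage, numbers of genes called and several gene lists are therefore also given per strand. The windows around codons and the sequence words were not split by strand. A PPS may also contain calls made with the double-stranded RNase (dsRNase), which lengthen it. This was true of 24.9% of the day 0 and 40.5% of the day 4 PPSs, and values without such PPSs are given beside many of the results. All 9 erythroid markers (among them Gata1, Klf1, Alas2 and Tfrc) had an exonic PPS in at least 1 replicate, against 2 of 8 megakaryocyte markers, 0 of 8 myeloid markers and 0 of 8 lymphoid markers. The megakaryocyte pair were Pf4, with a PPS in 1 day 0 replicate, and Itga2b, with 28.6% to 35.5% of its exonic nt covered in the 4 replicates.

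Sequences of PPSs that appeared or disappeared give a view of what the lists contain. A gained PPS is a day 4 PPS that overlaps no PPS of any kind in the day 0 list, a lost PPS is a day 0 PPS that overlaps none in the day 4 list, and a kept PPS overlaps an ssRNase PPS of the other day. All needed ssRNase calls of both replicates. Wholly inside CDS, 1258 PPSs were gained, 853 were lost and 1133 were kept. A PPS whose only counterpart was a dsRNase PPS or one of a length left out is in none of these groups. Over all classes, 29.2% of the 22056 day 0 PPSs with calls of both replicates overlapped none of day 4. Of the 22610 such day 4 PPSs, 30.03% overlapped none of day 0. CDS was touched by 30.2% of these day 0 and 36.3% of these day 4 PPSs, so the counts alone do not show a net gain in CDS. The sequences of the 3 highest-scoring gained PPSs in CDS are shown 5′ to 3′ on the RNA strand, as mm10 DNA. Capitals mark matches to the sequence words searched further on.

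gained, Ripor3, chr2:167992550-167992652, minus strand: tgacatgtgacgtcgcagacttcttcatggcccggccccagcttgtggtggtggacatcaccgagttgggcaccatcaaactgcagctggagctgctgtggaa
gained, Cenpb (the position is also annotated to Spef1), chr2:131178982-131179091, minus strand: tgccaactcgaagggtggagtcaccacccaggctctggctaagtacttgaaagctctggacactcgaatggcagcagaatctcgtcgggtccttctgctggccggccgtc
gained, Noa1, chr5:77309060-77309292, minus strand: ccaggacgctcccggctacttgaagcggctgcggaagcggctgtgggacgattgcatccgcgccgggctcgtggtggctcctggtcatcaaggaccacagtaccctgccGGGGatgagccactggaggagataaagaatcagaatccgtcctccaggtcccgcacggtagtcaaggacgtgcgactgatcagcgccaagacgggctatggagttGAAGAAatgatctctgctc

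Their scores, which are the deposited enrichment scores, were 50.63, 49.92 and 47.82. Cenpb encodes a centromere protein and Noa1 a mitochondrial GTPase. Each of the 3 PPSs lies inside CDS and merges 1 ssRNase call of each replicate with 1, 1 and 4 dsRNase calls, respectively. Of the 3 highest-scoring lost PPSs in CDS, in Bcl11a, Gml2 and Recql4 (scores 54.53, 53.72 and 46.47), the Gml2 site is shown. It merges 3 ssRNase and 3 dsRNase calls.

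lost, Gml2, chr15:74824029-74824211, plus strand: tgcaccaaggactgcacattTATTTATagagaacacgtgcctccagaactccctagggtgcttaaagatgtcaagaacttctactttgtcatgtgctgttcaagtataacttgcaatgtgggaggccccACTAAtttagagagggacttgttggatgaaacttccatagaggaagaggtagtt

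The highest-scoring kept PPS in CDS lay in Ranbp6, an importin family member, and was 880 nt long (chr19:29810387-29811266, minus strand, score 292.73 on day 4). Wholly within introns, 3101 PPSs were gained, 3221 were lost and 2583 were kept. These too are counts and not shares of the PPSs within introns. The 3 leading gained PPSs of introns lay in Apol11b, Apol11a and again Apol11b. The Apol11a PPS and the second Apol11b PPS are 99.7% identical over 354 aligned nt, so that reads from either gene could fall on both, and the 2 genes are not independent in what follows. The leading lost PPSs of introns lay in Bcl11a, Fam129a and Add3, and the leading kept ones in Stk3, Kel and Fam91a1.

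The PPSs of day 4 lay more often in mature mRNA and less often in introns. CDS was touched by 29.6% and 30.2% of the PPSs in the day 0 replicates and by 36.0% and 32.5% in the day 4 replicates. The means were 29.9% ± 0.43 and 34.3% ± 2.48 (SD, n = 2), a difference of 4.40 percentage points with a range of 2.34 to 6.47 over the pairs. The 3′ UTR share was 13.4% ± 0.77 on day 0 and 15.8% ± 0.45 on day 4, a difference of 2.44 points (1.58 to 3.31). The intron share was 65.5% ± 0.98 on day 0 and 61.5% ± 0.38 on day 4, a difference of -4.02 points (-4.98 to -3.05). A PPS that touched both classes was counted in both. In none of these 3 classes did the replicates of the days overlap.

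**Figure D1:**
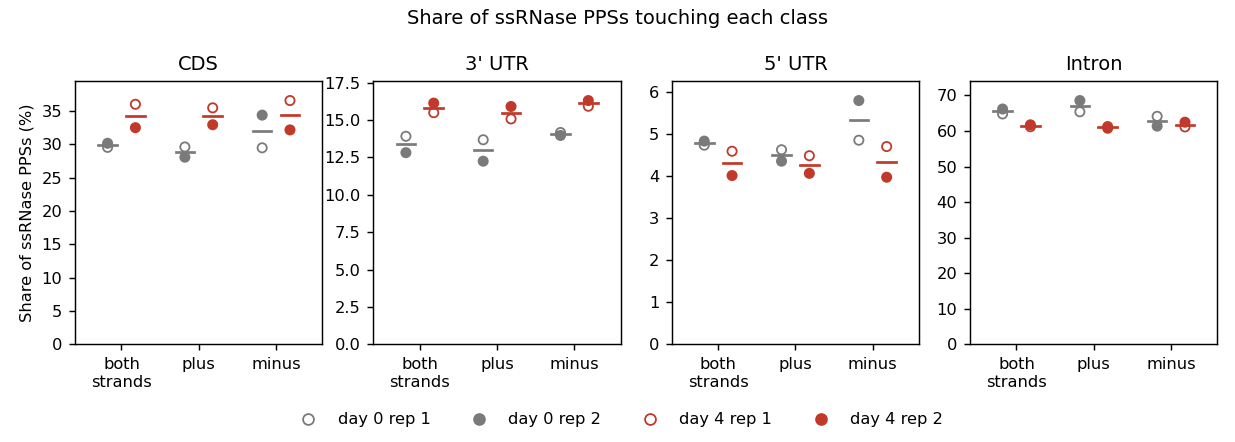
Share of ssRNase PPSs (y axis, percent) that touched the CDS, the 3′ UTR, the 5′ UTR or an intron, for both strands and for each strand alone. Circles are replicates (open, replicate 1; filled, replicate 2), grey for day 0 and red for day 4, and lines are means of 2; the CDS share of both strands has means of 29.9% and 34.3%, and on the minus strand the CDS and intron replicates of the days overlap.

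The strands did not contribute equally. On the plus strand the CDS difference was 5.37 points (3.33 to 7.40) and the intron difference -5.97 points (-7.79 to -4.15). On the minus strand they were 2.44 points (-2.22 to 7.09) and -0.94 points (-2.98 to 1.10), so that the replicates overlapped. The 3′ UTR difference was alike on both strands, at 2.52 points (1.39 to 3.66) on the plus and 2.04 points (1.75 to 2.33) on the minus strand. In PPSs without a dsRNase call the CDS difference was 8.25 points (6.004 to 10.5) and the intron difference -6.09 points (-7.19 to -4.99).

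Smaller classes followed. The 5′ UTR share was 4.79% ± 0.07 on day 0 and 4.31% ± 0.41 on day 4, but the difference was 0.33 points (-0.048 to 0.71) in PPSs without a dsRNase call, and small noncoding RNA genes held 0.596% ± 0.048 and 0.414% ± 0.089. PPSs antisense to a gene made up 1.98% ± 0.07 and 2.23% ± 0.02, and intergenic PPSs 3.95% ± 0.07 and 4.31% ± 0.01. The intergenic difference was 0.068 points (-0.046 to 0.18) in PPSs without a dsRNase call and 0.071 points (-0.007 to 0.15) on the minus strand. The antisense difference was 0.61 points (0.51 to 0.72) on the plus strand and -0.33 points (-0.70 to 0.05) on the minus strand. Exons of lncRNA genes held 1.80% ± 0.009 and 1.81% ± 0.004. PPSs that lay wholly in exons had a median length of 69 and 68 nt in the day 0 replicates and 70 and 72 nt in the day 4 replicates, and those wholly in introns 69 and 69 nt against 68 and 70 nt.

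Around the start codon the coverage was lower on day 4. Over the 100 nt before the start codon, in 5644 genes, 8.92% and 8.22% of the positions lay in a PPS in the day 0 replicates, against 6.81% and 6.04% in the day 4 replicates. The difference was -2.15 points (-2.88 to -1.42). In the first 100 nt of the CDS of 8383 genes the values were 9.60% and 8.55% on day 0 and 8.48% and 7.68% on day 4, a difference of -0.999 points (-1.93 to -0.071). The end of the message moved the other way. In the last 100 nt of the CDS the coverage was 5.26% ± 0.58 on day 0 and 6.19% ± 0.15 on day 4, a difference of 0.94 points (0.42 to 1.46), and in the first 100 nt of the 3′ UTR it was 3.68% ± 0.44 and 4.27% ± 0.10, a difference of 0.59 points (0.21 to 0.96). From 100 to 500 nt after the stop codon the differences were 0.40 to 0.61 points and the replicates of the days overlapped. All these windows are for both strands together and include PPSs that hold a dsRNase call. They were not computed without such PPSs, where the difference of the 5′ UTR share changed sign.

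**Figure D2:**
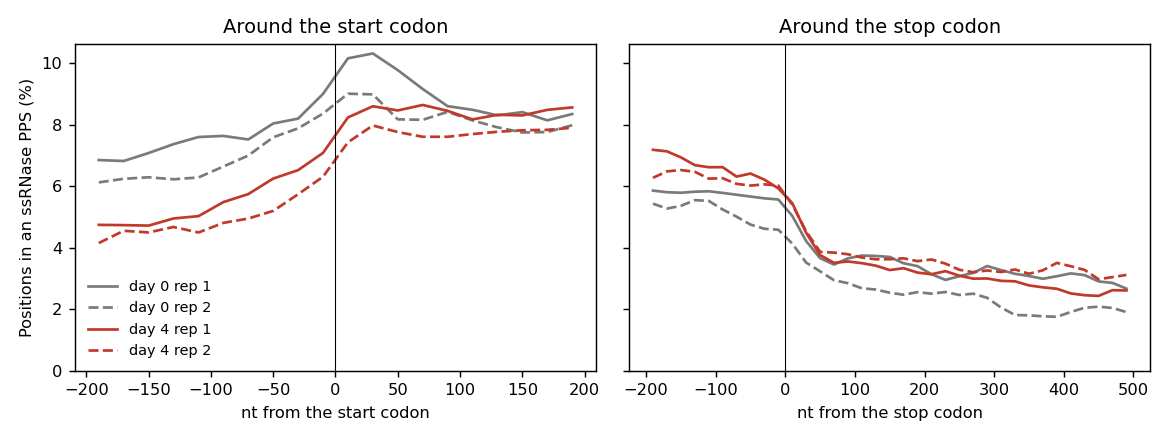
Percentage of transcript positions inside an ssRNase PPS (y axis) in bins of 20 nt around the start codon (left) and the stop codon (right), over 1 transcript per protein-coding gene; the x axis is the distance in nt. Grey lines are day 0 and red lines day 4 (solid, replicate 1; dashed, replicate 2); upstream of the start codon both day 4 lines lie below both day 0 lines, and before the stop codon they lie above.

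Of the day 0 PPSs 47.3% overlapped no PPS of any kind in the day 4 list, and of the day 4 PPSs 44.3% overlapped none in the day 0 list. Where calls of both replicates were required, these shares were 29.2% and 30.03%. Of the PPSs of a day 0 replicate, 30.8% to 32.2% overlapped a PPS of a day 4 replicate by at least 1 nt on the same strand, and of the PPSs of a day 4 replicate 32.6% to 36.1% overlapped one of a day 0 replicate. Within a day, 39.4% and 43.3% of the PPSs of the day 0 replicates and 47.5% and 47.0% of those of the day 4 replicates overlapped the other replicate. The within-day values were above all between-day values, although merged coordinates raise the former. In PPSs without a dsRNase call the overlap between days was 16.2% of the day 0 and 22.7% of the day 4 PPSs. PPSs with calls of both replicates that were gained on day 4 touched a CDS in 29.1% and a 3′ UTR in 13.2% of cases, those lost from day 0 in 24.4% and 9.37%. Over all PPSs with calls of both replicates these shares were 36.3% and 15.1% on day 4 and 30.2% and 11.9% on day 0. Gained and lost PPSs thus both lay below their own day's list in both classes. The gained ones touched a 5′ UTR in 3.39% and the lost ones in 4.94% of cases, against 4.74% and 5.32% over all such PPSs of day 4 and day 0. Day 4 PPSs with calls of both replicates whose only day 0 counterpart was a dsRNase or 20 to 40 nt PPS numbered 2210, and 56.1% of these touched a CDS, against 32.4% of the 2879 day 0 PPSs with such a counterpart on day 4.

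Exonic coverage was then compared gene by gene, as the percentage of a protein-coding gene's exonic nt inside PPSs. Over the 8440 genes with an exonic PPS in any replicate, the mean coverage was 4.10% ± 0.30 on day 0 and 4.11% ± 0.10 on day 4. Behind this lay opposite differences of the strands. The mean difference was -0.840 points (-1.31 to -0.372) over 4315 plus-strand genes and 0.895 points (0.122 to 1.67) over 4125 minus-strand genes. A gene was called higher or lower on day 4 when all 4 pairs moved the same way and the mean difference was at least 10 points. This held for 220 genes that were higher (2.61%) and 209 that were lower (2.48%). Of the plus-strand genes 1.65% were higher and 3.24% lower, and of the minus-strand genes 3.61% were higher and 1.67% lower. Of the called genes, 36 of the higher ones had no PPS on day 0 and 54 of the lower ones none on day 4. Without PPSs that contain a dsRNase call, 73 genes were higher and 66 lower.

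The number of exonic ssRNase calls per gene was tested with limma on log2 calls per 10000 calls of the replicate, over 3687 genes with at least 8 calls. At a Benjamini-Hochberg adjusted p of 0.05, 150 genes (4.07%) were higher and 121 (3.28%) lower on day 4. Of the 1883 plus-strand genes 32 were higher and 90 lower, and of the 1804 minus-strand genes 118 were higher and 31 lower. The median log2 difference over all these genes was 0.22. With median ratio scaling it was -0.011, and 137 genes were higher and 184 lower. Genes without any call on a day were common among the called ones, because such a gene hardly varies between the replicates of that day. They made up 51 of the 150 higher genes (none on day 0) and 70 of the 121 lower genes (none on day 4). The numbers moved when a replicate was left out, and such a fit keeps 1 sample on a day, which is then assumed to vary like the samples of the other day. Without day 0 replicate 1 and without day 0 replicate 2 no gene was higher, though 999 and 856 genes had an unadjusted p under 0.05, and the 73 genes that were lower all had no call in either day 4 replicate. Without day 4 replicate 1, 187 genes were higher and 258 lower, and with genes of at least 4 calls no gene passed, though 1391 of 5702 had an unadjusted p under 0.05. Of the genes called higher by coverage 31.4% were also higher by calls, which was 46% of the latter. Of those called lower by coverage 21.1% were also lower by calls, 36.4% of the latter, and no gene was called in opposite directions. Coverage and calls come from the same PPSs and replicates, so their agreement is no independent support. The same holds for the limma p values of genes that were named for their coverage. Fold changes are not given for genes without a call on 1 of the days.

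The largest rises in exons included genes of the red cell program. Slc25a37 (mitoferrin 1, the carrier that brings iron into mitochondria for heme synthesis; chr14:69241848-69285112, minus strand) had an exonic coverage of 14.1% and 15.9% on day 0 and of 53.8% and 58.9% on day 4. The difference was 41.4 points (37.9 to 44.8). It lay in the 3′ UTR, where the coverage was 2.6% and 8.5% on day 0 and 56.2% and 71.0% on day 4, while in the CDS it was 44.8% and 40.7% against 54.4% and 42.9%. The calls per replicate went from 9 and 10 to 24 and 25, a log2 change of 1.47 ± 0.24 (SE; limma, adjusted p = 0.0303). In PPSs without a dsRNase call the coverage difference was -1.16 points, so the rise rests on PPSs that also hold dsRNase calls.

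Hba-a1, an adult alpha globin, had 0% and 10.84% on day 0 and 74.4% and 26.1% on day 4. The day 4 replicates differed by more than the lower of them. In PPSs without a dsRNase call the difference was 0 points, and the reads may not separate Hba-a1 from its near-identical copy Hba-a2. Ache, acetylcholinesterase, which is anchored on the red cell surface, went from 5.54% and 9.15% to 47.6% and 49.3%, and its calls from 3 and 5 to 19 and 19 (log2 change 2.30 ± 0.36, SE; adjusted p = 0.0300). Its neighbour Ufsp1, a UFM1 protease relative, went from 0% and 5.9% to 38.0% and 46.3% (limma adjusted p = 0.0512). Cox6b2 and Gadd45g had no exonic PPS on day 0. On day 4 Cox6b2, a subunit of cytochrome c oxidase, had 52.3% in both replicates, and Gadd45g, a stress and growth arrest gene, had 47.2% and 33.6%. Of their intronic nt, 73.8% in both replicates of Cox6b2 and 0% in Gadd45g lay in a PPS on day 4. The calls of both genes were higher by limma, with adjusted p = 0.0289 and 0.0320. Apol11a and Apol11b, of the apolipoprotein L family, also had none on day 0, and on day 4 Apol11a had 50% and 50.5% and Apol11b 42.02% and 32.03%. Without PPSs that hold a dsRNase call these differences were 29.8 points for Cox6b2, 31.1 for Apol11a, 10.5 for Apol11b, 7.83 for Ache, 4.56 for Gadd45g and 0.48 for Ufsp1.

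**Figure D3:**
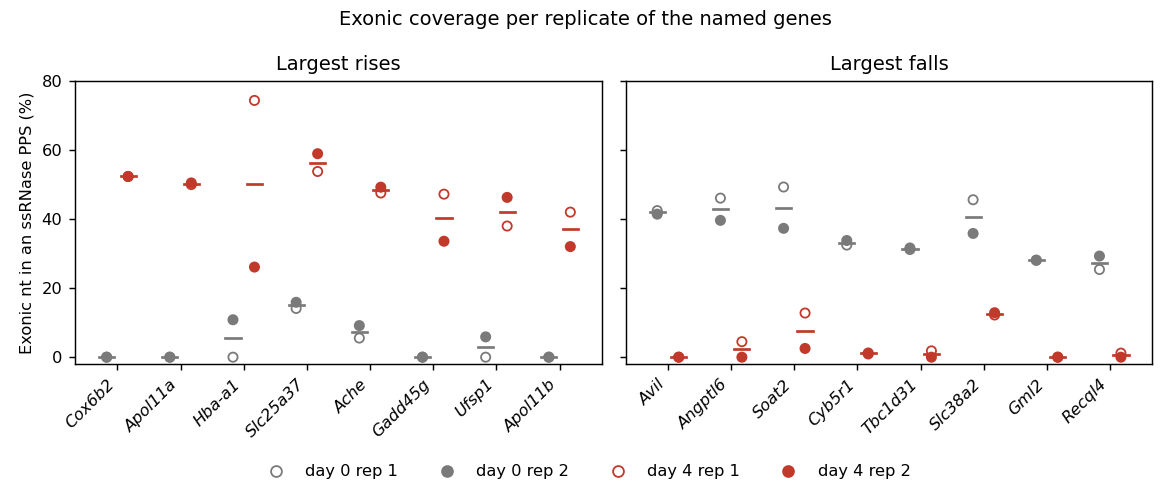
Exonic coverage by ssRNase PPSs (y axis, percent of exonic nt) of the 8 genes with the largest rises (left) and the 8 with the largest falls (right) under the naming rule. Circles are replicates (open, replicate 1; filled, replicate 2), grey for day 0 and red for day 4, and lines are means of 2; the replicates of the days do not overlap in any of the 16 genes, which the rule required, and Hba-a1 has the widest spread on day 4 (74.4% and 26.1%).

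The largest falls led to coverage at or near 0. Avil, which encodes the actin-binding protein advillin (chr10:127000709-127020994, plus strand), had 42.5% and 41.4% on day 0 and no PPS on day 4. Its calls were 20 and 18 against 0 and 0 (limma adjusted p = 0.0277), and 55.1% and 53.7% of its CDS had been covered. The leading CDS site of Avil on day 0 (score 26.19) contained no dsRNase call and none of the words searched.

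day 0, Avil, chr10:127013537-127013652, plus strand: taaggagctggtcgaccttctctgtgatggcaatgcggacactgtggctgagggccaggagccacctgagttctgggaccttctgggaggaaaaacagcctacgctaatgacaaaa

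Angptl6, an angiopoietin-like secreted protein, fell from 46.1% and 39.6% to 4.5% and 0%, and Soat2, a cholesterol esterifying enzyme, from 49.3% and 37.3% to 12.8% and 2.5%. Their calls did not pass limma (adjusted p = 0.0558 and 0.107). Cyb5r1, a cytochrome b5 reductase, fell from 32.5% and 33.8% to 0.92% and 1.2%, with a log2 change of calls of -3.11 ± 0.43 (SE; adjusted p = 0.0289). Slc38a2, a neutral amino acid transporter, fell from 45.6% and 35.85% to 12.2% and 12.9%, and its calls from 37 and 28 to 15 and 14 (-0.97 ± 0.21, SE; adjusted p = 0.0447). Recql4, a DNA helicase of the RecQ family, fell from 25.4% and 29.3% to 1.2% and 0%, Tbc1d31, a centrosomal protein, from 31.2% and 31.6% to 1.8% and 0%, and Gml2 from 28.1% in both replicates to 0%. Without PPSs that hold a dsRNase call the differences were -25.0 points for Avil, -23.5 for Soat2, -20.1 for Angptl6, -13.5 for Recql4, -12.6 for Tbc1d31, -11.6 for Cyb5r1, -8.29 for Slc38a2 and -5.24 for Gml2. Leaving out PPSs can only lower coverage, so a gene with little or no coverage on day 4 could hardly have given a rise. Likewise a gene without a PPS on day 0 could not have given a fall. This holds for Cox6b2, Gadd45g, Apol11a and Apol11b above and for every such gene below. PPSs that hold a dsRNase call were also more common on day 4, at 40.5% against 24.9% on day 0.

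Some genes stood out by their calls rather than by their coverage. The lowest p belonged to Dnah8, an axonemal dynein heavy chain, with 26 and 29 exonic calls on day 0 and none on day 4 (limma adjusted p = 0.0277). Plxna3, a plexin receptor, had 16 and 19 calls on day 0 and none on day 4 (adjusted p = 0.0277). Cenpe, a kinetochore motor, went from 24 and 25 calls to 5 and 5, a log2 change of -2.03 ± 0.26 (SE; adjusted p = 0.0277). Mxd4, a MAX partner that opposes MYC, had no call on day 0 and 12 and 19 on day 4 (adjusted p = 0.0277). These 4 genes were chosen after their values were seen. The leading day 0 CDS site of Plxna3 (score 33.16) is an example of a lost PPS that held several of the words.

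day 0, Plxna3, chrX:74335320-74335495, plus strand: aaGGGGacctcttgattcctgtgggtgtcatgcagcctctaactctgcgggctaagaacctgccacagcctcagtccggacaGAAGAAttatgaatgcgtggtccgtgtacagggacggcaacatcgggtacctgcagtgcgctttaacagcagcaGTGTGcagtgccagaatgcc

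Gene lists were described next, each against the 2.61% and 2.48% of all tested genes that were called by coverage and the median difference of -0.08 points over all of them. Where PPSs or a replicate were left out, a list median was taken over the members that still had an exonic PPS. Such a median can therefore differ through its members as well as through their coverage. Among the 10 globin genes, 6 had an exonic PPS and 4 of these were called higher, none lower, with a median difference of 20.3 points. The median was 4.05 points in PPSs without a dsRNase call. The 4 were the alpha cluster genes Hba-a1, Hbq1b, Hba-a2 and Hbq1a, all on the plus strand. Hbq1b went from 0% in both replicates to 48.0% and 19.7%, Hba-a2 from 0% to 26.5% in both and Hbq1a from 0% to 15.2% and 12.75%. Without dsRNase calls Hba-a2 differed by 4.05, Hbq1b by 4.90 and Hbq1a by 13.99 points. The adult beta globins, on the minus strand, were not called. Hbb-bt had 0% and 4.3% on day 0 against 9.1% and 0% on day 4, and Hbb-bs 6.5% and 3.9% against 8.3% and 0%. None of the globins had enough calls for limma. In the introns of the 4 called globin genes no position lay in a PPS on day 0. On day 4 the intronic coverage was 99.3% and 29.4% in Hba-a1 and 100% in both replicates of Hba-a2. It was 15.8% in both replicates of Hbq1b and 0% in Hbq1a.

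Of 15 genes of heme synthesis, all with an exonic PPS, 6 were called higher and none lower, with a median difference of 6.13 points. The median was 1.27 points over 5 plus-strand and 9.24 points over 10 minus-strand members, and 3.02 points in PPSs without a dsRNase call. Ppox, protoporphyrinogen oxidase, went from 14.7% and 18.2% to 42.04% and 45.7%, and 86.8% and 85.8% of its CDS lay in a PPS on day 4. Without dsRNase calls its difference was 8.45 points. Alas2, the erythroid enzyme of the first and rate-limiting step, went from 0% and 5.5% to 17.1% and 13.8%, but by -0.58 points in PPSs without a dsRNase call. By calls, Alad, Abcb10 and Fech were higher, with Abcb10, a mitochondrial transporter, at 2 and 1 calls on day 0 and 12 and 12 on day 4 (limma adjusted p = 0.0289). Cpox, coproporphyrinogen oxidase, went the other way in all pairs, from 10.4% and 9.6% to 4.7% and 4.0%, within the limit of 10 points.

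Of 22 genes of the red cell membrane and skeleton 20 had an exonic PPS, 6 were called higher and none lower, and the median difference was 5.45 points, 0.49 on the plus and 7.52 on the minus strand. The median was 1.0805 points in PPSs without a dsRNase call. Epb41, protein 4.1R, went from 9.2% and 5.4% to 20.9% and 21.05%, Ank1, ankyrin 1, from 7.1% and 5.7% to 22.7% and 16.9%, and Add1, alpha adducin, from 1.8% and 3.4% to 14.6% and 15.5%. Sptb, beta spectrin, went from 5.93% and 4.35% to 18.2% and 13.8%. Without dsRNase calls the differences were 2.33 points for Epb41, 6.66 for Ank1, 3.56 for Add1 and 2.28 for Sptb. By calls Epb41, Ank1, Sptb, Epb42 and Dmtn were higher, with Epb41 at 18 and 11 calls on day 0 and 43 and 39 on day 4 (limma adjusted p = 0.0289). Rhag, the Rh-associated glycoprotein, had 10.7% and 10.3% on day 0 and 3.6% and 0% on day 4.

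Of 25 genes of terminal maturation, 20 had an exonic PPS, 5 were called higher and none lower, with a median of 3.05 points, which was 1.94 in PPSs without a dsRNase call and 5.17 without day 0 replicate 1. Btg2, an antiproliferative protein that recruits the deadenylase, had no PPS on day 0 and 33.7% and 20.5% on day 4, with 9 and 7 calls (limma adjusted p = 0.0284). Without dsRNase calls its coverage difference was 2.68 points. Epor, the erythropoietin receptor, went from 23.3% and 15.4% to 44.9% and 40.9%. Tspan33 and Pim1 were called higher too, at 14.9% and 12.1% and at 15.4% and 13.4% on day 4. Without dsRNase calls Epor differed by 10.68, Tspan33 by 4.81 and Pim1 by 8.03 points. Ulk1, an autophagy kinase, and Ube2o, a ubiquitin ligase that clears ribosomes in reticulocytes, were higher by calls.

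Erythroid transcription regulators were mixed. Of 20 genes none was called higher and 2 lower, while the median difference was 2.27 points, or 0.593 in PPSs without a dsRNase call. Bcl11a, a repressor of embryonic and fetal globin genes (plus strand), fell from 24.0% and 22.2% to 2.0% and 0.41%, a difference of -21.9 points (-23.6 to -20.2), or -6.05 points in PPSs without a dsRNase call. Its calls went from 35 and 27 to 4 and 1 (log2 change -3.44 ± 0.54, SE; limma adjusted p = 0.0298), and its intronic coverage from 17.5% and 18.97% to 0.16% and 0.12%. Lmo2, a partner of Tal1 and Gata1, fell from 14.2% and 18.98% to 6.7% and 4.1%, with a difference of -5.17 points without dsRNase calls. Tal1 had 8.8% and 9.0% on day 0 and 16.03% and 18.1% on day 4, a difference of 8.18 points (7.03 to 9.32) that stayed under the limit and was 0.31 points without dsRNase calls. Foxo3 was the member that was higher by calls, with 4 and 3 against 11 and 12 (limma adjusted p = 0.0344). In the iron list, 12 of 18 genes had an exonic PPS, Slc25a37 was the single gene called, and the median difference was -0.64 points, or -2.15 without day 0 replicate 2 and -1.04 without day 4 replicate 2, and 1.55 with calls of both replicates required.

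**Figure D4:**
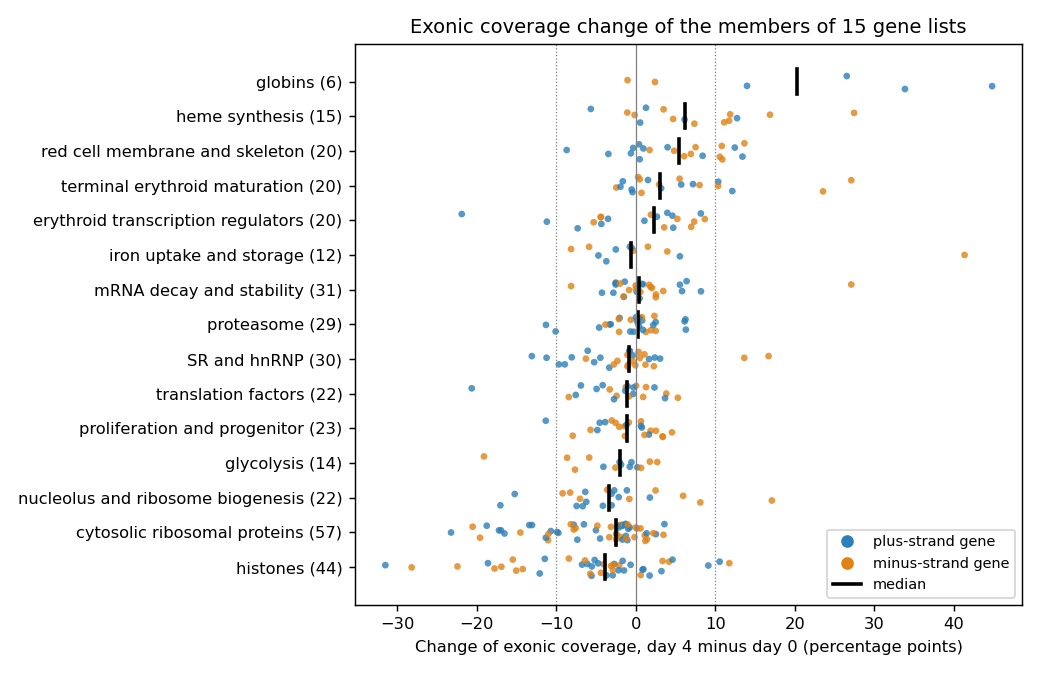
Difference in exonic coverage (x axis, percentage points, day 4 minus day 0) of every member with an exonic PPS in 15 gene lists (y axis; number of members in brackets). Points are genes, blue on the plus and orange on the minus strand, black bars are list medians and dotted lines mark the limit of 10 points; the medians run from 20.3 points for the globins to -3.88 for the histones.

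Ribosomal protein genes had the most falls of the lists. Of 84 genes of cytosolic ribosomal proteins, 57 had an exonic PPS, none was called higher and 14 lower, 9 of them on the plus and 5 on the minus strand, and the median difference was -2.48 points. The median was -4.04 and -4.66 without day 0 replicates 1 and 2, -3.51 and -4.18 without day 4 replicates 1 and 2, and -6.21 with calls of both replicates required. These medians are over the members that still had an exonic PPS, which need not be all 57. Rpl38 fell from 24.0% and 22.5% to 0%, Rpl30 from 30.03% and 15.03% to 3.5% and 2.3%, Rpl13a from 38.4% and 24.1% to 14.05% and 7.4% and Rpl10a from 29.2% and 31.5% to 15.6% and 7.6%. In PPSs without a dsRNase call Rpl38 differed by -0.738, Rpl30 by -5.08 and Rpl13a by -4.87 points, and Rpl10a by 7.45 points the other way. By calls, Rpl23a was the single member that was lower. These genes have many processed pseudogenes and several host snoRNAs, so their coverage is uncertain.

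Of 82 histone genes, 44 had an exonic PPS, 7 were called lower and 2 higher, with a median of -3.88 points, or -1.73 in PPSs without a dsRNase call and -2.22 without day 0 replicate 1. The lower ones were replication-dependent histones, such as Hist1h2bk, which fell from 31.5% in both replicates to 0%, Hist1h4k, from 28.2% to 0%, and Hist1h2ae, from 22.4% to 0%. In each of these 3 the value rests on 1 merged PPS on day 0 that holds dsRNase calls, and without such PPSs their difference was 0. The 2 that were called higher were H3f3b, a replication-independent H3.3 gene, which went from 14.1% and 0% to 22.0% and 15.6% (1.13 points without dsRNase calls), and Hist1h1c, from 0% and 7.4% to 16.99% and 11.5%, which was at -0.032 points in PPSs without a dsRNase call. Histone genes have near-identical copies, which the reads may not separate.

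Nucleolar and ribosome biogenesis genes had a median of -3.33 points over 22 members, or -1.34 in PPSs without a dsRNase call. The median was -4.14 points on the plus and -0.82 points on the minus strand. The 2 genes called lower lie on the plus and the 1 called higher on the minus strand, and the part of the strand balance was not tested. Nop56 and Rrs1 were called lower, Nop56 from 45.01% and 32.6% to 22.2% and 24.98%, though by 9.55 points the other way in PPSs without a dsRNase call, and Ubtf was called higher. Without dsRNase calls Rrs1 differed by -4.32 and Ubtf by 8.38 points. Ubtf, the upstream binding factor of RNA polymerase I, went from 0.76% and 1.9% to 16.4% and 20.45%, and its calls from 1 and 2 to 16 and 19 (log2 change 3.36 ± 0.44, SE; limma adjusted p = 0.0277). Its leading CDS site on day 4 (score 29.66) contained a GAAGAA.

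day 4, Ubtf, chr11:102308722-102308809, minus strand: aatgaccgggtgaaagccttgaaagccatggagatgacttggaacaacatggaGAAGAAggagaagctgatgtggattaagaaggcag

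Among translation factors, Eif4a2, an RNA helicase of initiation, fell from 63.1% and 62.4% to 42.1% and 42.2%, and it was the single call of 22 members (median -1.14 points, but -0.442 without day 0 replicate 1 and -1.97 without day 4 replicate 1). Without dsRNase calls Eif4a2, on the plus strand, differed by -12.86 points. The median of the translation factors was -2.04 points on the plus and -0.41 points on the minus strand. In the proliferation list the median was -1.17 points over 23 members and Rrm2, a subunit of ribonucleotide reductase, was the single call, from 13.5% and 9.2% to 0%, with a difference of -3.50 points without dsRNase calls. The median of the proliferation list was -0.079 without day 0 replicate 1 and -2.22 without day 0 replicate 2. It was -2.52 points on the plus strand, where Rrm2 lies, and -0.88 points on the minus strand. Myb, the progenitor transcription factor, had 9.3% and 6.6% on day 0 and no PPS on day 4. Its calls were 12 and 9 against 0 and 0 (limma adjusted p = 0.0277). Glycolysis genes had a median of -1.95 points over 14 members, at -1.31 points on the plus and -4.22 points on the minus strand, where the single gene called lies. Gpi1, glucose-6-phosphate isomerase, fell from 22.9% and 24.5% to 6.5% and 2.7% (log2 change of calls with adjusted p = 0.0439 by limma; coverage difference -11.19 points without dsRNase calls), and Hk2, a hexokinase, from 6 and 5 calls to none (adjusted p = 0.0309).

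SR proteins and hnRNPs divided by strand. Of 30 members Srsf2 and Hnrnpm were called higher and Srsf4 and Hnrnpa1 lower. The higher pair lies on the minus and the lower pair on the plus strand, and the median was -4.46 points on the plus and -0.06 points on the minus strand, and the part of the strand balance in this was not tested. Srsf2, which went from 30.7% and 20.99% to 40.5% and 44.6%, gave -7.08 points in PPSs without a dsRNase call, where Hnrnpm differed by 1.77, Srsf4 by -5.64 and Hnrnpa1 by -2.65 points. The median of the whole list was -0.887 points, but 0.377 without day 0 replicate 1, -2.29 without day 0 replicate 2 and -1.37 without day 4 replicate 2. Proteasome genes had a median of 0.26 points over 29 members with 2 lower, and genes of mRNA decay had 0.38 points over 31 members with Btg2 as the single call. Both medians changed sign when a replicate was left out. For the proteasome it was -0.840 and 1.18 without day 0 replicates 1 and 2 and -0.379 and 0.447 without day 4 replicates 1 and 2, and for mRNA decay -0.043, 0.261, 0.870 and 0.063 in that order. The 2 proteasome genes called lower lie on the plus strand, where the median was 0.22 points, against 0.77 points on the minus strand. Of the 4 messages that the study used in pulldowns, Appl2, an endosomal adaptor, went from 0.91% and 0.84% to 18.5% and 20.4% (10.05 points without dsRNase calls), and its calls from 1 and 1 to 12 and 15 (log2 change 3.37 ± 0.42, SE; limma adjusted p = 0.0277). Dido1, Aff1 and Adar differed by 2.22 (0.51 to 3.94), 0.60 (-2.09 to 3.30) and -2.46 points (-5.31 to 0.38).

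day 4, Appl2, leading CDS site (score 28.82), chr10:83608937-83608994, minus strand: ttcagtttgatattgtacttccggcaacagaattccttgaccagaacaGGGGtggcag

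Intronic coverage was lower on day 4. Over 6064 genes with at least 2000 intronic nt and an intronic PPS, the mean was 1.24% and 1.15% in the day 0 replicates and 0.927% and 0.955% in the day 4 replicates, a difference of -0.2499 points (-0.309 to -0.191). It was -0.517 points (-0.682 to -0.352) on the plus strand and 0.031 points (-0.265 to 0.327) on the minus strand. By the rule of 10 points 34 genes were higher (0.561%) and 43 lower (0.709%). Without PPSs that contain a dsRNase call, 2 genes were higher and 22 lower, so most of the rises rest on PPSs that also hold dsRNase calls. The values of single genes below are for all ssRNase PPSs. Apol11b and Apol11a led the rises, from 0% to 42.05% and 42.8% and to 37.7% and 35.1%. Csf2rb2, a cytokine receptor subunit, went from 2.3% and 1.8% to 38.0% and 33.0% of its introns, while its exons went from 11.4% and 4.3% to 9.4% and 7.3%. Alad, the second enzyme of heme synthesis, went from 1.7% and 0% to 24.4% and 29.0%, and Bsg, basigin, a membrane glycoprotein, from 7.3% and 9.5% to 38.3% and 28.4%. Scd2, a fatty acid desaturase, fell from 31.9% and 31.8% to 0%, Zfp971 from 33.2% and 32.4% to 5.4% and 2.7%, Shmt2, the mitochondrial serine hydroxymethyltransferase, from 25.0% and 19.4% to 0%, Rcc2 from 21.3% and 23.0% to 0.36% and 0.36% and Slc38a2 from 24.1% and 23.0% to 4.4% and 4.0%. For Scd2 the exons had 8.9% and 7.1% on day 0 and 5.7% and 4.45% on day 4.

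The sequence of the PPSs was compared through 10 short words known as binding sites of protein families, counted on the RNA strand with overlaps, in PPSs wholly within CDS, 3′ UTRs or introns and in flanks of equal length without a PPS. GAAGAA, a purine-rich word bound by SR proteins, was more frequent on day 4 in all 3 places and in all pairs. It occurred 1.87 ± 0.03 times per 1000 nt of CDS PPSs on day 0 and 2.12 ± 0.15 times on day 4 (SD, n = 2), against 1.06 and 1.10 in the flanks of the day 0 and 1.07 and 1.17 in those of the day 4 replicates. In 3′ UTRs it was at 0.994 ± 0.018 and 1.13 ± 0.002, against 0.457 and 0.391 in the flanks, and in introns at 0.656 ± 0.005 and 0.789 ± 0.039, against 0.448 and 0.454. The PPS density was above the flank in all 4 replicates and in each place.

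The word of Pumilio proteins, TGTANATA, went the opposite way in 3′ UTRs, CDS and introns, in all pairs. In CDS PPSs its mean went from 0.052 to 0.033 per 1000 nt and in intronic PPSs from 0.175 to 0.142. In the flanks the word went from 0.014 to 0.033 for CDS and from 0.138 to 0.121 for introns, so intronic PPSs and flanks fell together. In CDS it lay above the flank in 3 of the 4 replicates. In 3′ UTRs it occurred 0.488 and 0.465 times per 1000 nt in the day 0 replicates and 0.287 and 0.238 times in the day 4 replicates, a difference of -0.214 (-0.2502 to -0.178). The flanks had 0.218 on day 0 and 0.155 on day 4, so the ratio of PPS to flank was 2.18 on day 0 and 1.70 on day 4. The words TTTTT and AAAAAA and the pyrimidine words CTCTCT and CCTCCC were rarer in PPSs than in flanks in every replicate and place. In 3′ UTRs TTTTT was at 2.36 ± 0.48 and 1.69 ± 0.16 per 1000 nt, against 7.15 and 6.99 in the flanks. The AU-rich word TATTTAT was at 0.139 ± 0.012 in 3′ UTR PPSs on day 0 and 0.074 ± 0.015 on day 4, against 0.283 and 0.247 in the flanks. The quaking core ACTAA was at 0.688 ± 0.034 and 0.579 ± 0.050 there, close to its flanks at 0.732 and 0.716. GGGG in intronic PPSs went from 2.63 ± 0.02 to 3.08 ± 0.18, and in their flanks from 3.91 to 4.30, so that PPSs and flanks moved together. GTGTG differed by 0.086 (-0.094 to 0.265) in 3′ UTRs, with overlapping replicates. The GC content of 3′ UTR PPSs was 45.9% ± 0.90 and 47.5% ± 0.77, that of CDS PPSs 51.5% ± 0.19 and 51.6% ± 0.75.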

How the data were processed

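The authors trimmed reads with cutadapt 1.2.1, aligned them to mm10 with TopHat2 2.0.10, and called PPSs per RNase and replicate with a modified CSAR package. The deposited list of a day merges the calls of both RNases and replicates, and its score is the authors' enrichment score; how libraries were scaled is not given in the sources used here. The deposited name field was parsed into numbers of ssRNase and dsRNase calls per replicate; call names were matched to sample titles. PPSs of 20 to 40 nt were left out. Genes came from GENCODE M21 and sequence from GRCm38, the assembly that mm10 names. A class was counted at 1 nt of overlap.

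Coverage used merged PPSs per replicate. Calls per gene were tested with limma 3.58.1 (R 4.3.3; trend, log2 of calls with 0.5 added, scaled to 10000 calls, no block, at least 8 calls over the 4 replicates, Benjamini-Hochberg). On simulated calls for the same comparison and 3687 genes, 105 of 200 genes with a 16-fold change were recovered and 0 others called. The simulated calls were independent Poisson draws, and the changed genes were taken from those with more calls. Strand imbalance and merged coordinates shared by replicates were not simulated, so these numbers do not carry over to the real calls. Python 3.11.15, numpy 2.4.6, pandas 2.3.3, pysam 0.24.0, Biopython 1.88 and matplotlib 3.10.9 were used.

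Named genes were the 8 largest rises and falls in exons (called, at least 500 exonic nt, at least 3 PPSs on 1 day, under 5% of exonic nt shared with another gene, no predicted-gene or RIKEN symbols), the 5 largest rises and falls in introns (at least 2000 intronic nt), list members with the largest differences or against the list median, and the highest-scoring gained, lost and kept PPSs. The members, lists and tests were chosen with earlier results of these data known. The single-gene CDS sites shown were added after the values were seen. Alternatives changed the length filter, replicate support, dsRNase calls, score, strand, overlap and coverage limits, call filters, scaling, added calls, replicate block and each replicate. The day 2 list was not used here. A few items are not reported here.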

Additional observations from a re-analysis of the deposited data

Results flagged for a closer look

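The mean difference in exonic coverage, day 4 minus day 0, was -0.840 points over plus-strand genes and 0.895 points over minus-strand genes. All 4 pairs of replicates were below 0 on the plus strand (-1.31 to -0.372) and above 0 on the minus strand (0.122 to 1.67), which is why the pair is listed; the difference between the strands was not tested. The share of PPSs on the plus strand moved with it, at 52.0% and 66.9% in the day 0 replicates and 51.0% and 43.1% in the day 4 replicates, and its part in the result was not tested.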

How the results depend on the processing

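A value turned when all 4 main pairs had 1 sign and the value the other, for named genes only from a main difference of 10 points. Otherwise it was kept when it lay within the SD of the 4 pairs, or for a count within a set factor. Other values moved. A kept value could thus change sign, as the SR and hnRNP median did (0.377 without day 0 replicate 1). Among the results on shares, overlaps and counts, 157 values were kept, 104 moved and 3 turned. List medians did so 118, 61 and 5 times, and named genes in coverage 996, 308 and 6 times. In each case the cause was not tested unless the setting itself sets the number. A limit of 5 points gave 687 exonic rises and 659 falls (intronic, 78 and 134), and 20 points gave 46 and 35 (9 and 6). With both replicates required, the intron share differed by -4.98 points, mean exonic coverage by 0.480, mean intronic by -0.173, and the overlap of day 4 PPSs was 30.46%. The medians were then 1.55 points (iron) and -0.782 points (the 4 pulldown messages, targets and controls together). Without dsRNase calls, CDS differed by 8.25, 5′ UTR by 0.331 and intron by -6.09 points, mean exonic coverage by -0.283 (73 rises, 66 falls), mean intronic by -0.376 (2 and 22), overlaps were 16.2% and 22.7%, and the erythroid marker median was -0.261. Slc25a37 then gave -1.16, Alas2 -0.583, Nop56 9.55, Srsf2 -7.08, Hist1h1c -0.0321 and Rpl10a 7.45 points. With top-scoring PPSs in equal number, intron differed by -3.10 points, exons had 129 rises and 129 falls, mean intronic coverage differed by -0.138 with 21 rises, the overlap of day 4 PPSs was 31.2% and the erythroid regulator median -0.311. On the plus strand, intron differed by -5.97, mean exonic coverage by -0.840 (71 rises), mean intronic by -0.517 (15 rises) and overlaps were 27.7% and 38.7%. On the minus strand, intron differed by -0.939, antisense by -0.327, mean exonic coverage by 0.895 (69 falls), mean intronic by 0.0310 (19 and 10), the iron median was 0.624 and overlaps were 37.3% and 31.2%. With replicates pooled, mean exonic coverage differed by -0.281 (373 and 450), mean intronic by -0.392 (67 falls), and overlaps were 37.9% and 43.8%. Counting a class at 50% of the PPS gave -4.94 points for intron, and requiring 50% of the shorter PPS gave an overlap of 29.9%.

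The calls tested with limma gave 397 higher and 211 lower genes with 2 calls added, 195 and 197 on arcsine coverage, 0 and 0 at a minimum of 4 calls (1391 at an unadjusted p under 0.05), 137 and 184 with median ratio scaling, 77 and 31 without dsRNase calls, and 391 and 259 when scaled per strand, a setting added after seeing the data. Leaving out 1 replicate at a time gave 0 to 187 higher and 73 to 258 lower genes, and mean intronic differences of -0.314 (without day 0 replicate 2) to -0.219. The replicate numbers only share a name (correlation of the deviations -0.126), and the replicate block gave 374 and 226. The crossed replicate block, added after seeing the data, gave 490 and 287. The lists do not give the read depth behind a PPS, and 2 replicates a day that share coordinates limit the precision of all values.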
